A study of Mus musculus with 6 samples.

Results

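The suppressor of cytokine signalling (SOCS) family, Socs1 to Socs7 and Cish, was examined in the aortic arteries of mouse fetuses whose mothers had received a NOD1 ligand. Its members were the non-control probes that carry one of these 8 gene names in the array design. They were 14 of 55681 probes, and 8 of 34797 gene names. After dim probes had been left out, 12 of 30166 probes remained, and all 8 genes were among the 21478 tested. The fetuses were C57BL/6 at E18.5 of gestation and came from crosses of Nod1 -/- females with Nod1 +/- males. All dams, themselves Nod1 -/-, had received 500 µg of FK565, a synthetic ligand of the peptidoglycan sensor NOD1, under the skin 6 h before the vessels were taken. RNA of 3 Nod1 -/- and 3 Nod1 +/- fetal aortas, described as littermates, was hybridised to 1-colour Agilent arrays, to ask how fetal vessels respond to the ligand in vivo. Both genotypes thus shared the ligand and a dam without Nod1, and there was no group without FK565. The sources used here do not say whether one array stands for one fetus, and the p-values reflect only how far these 6 arrays spread.

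SOCS proteins act as negative feedback on cytokine receptors that signal through JAK kinases and STAT transcription factors. Activated STATs switch on SOCS genes. The proteins then bind phosphorylated receptors or kinases through an SH2 domain, and a SOCS box recruits elongin B, elongin C and a cullin-5 ubiquitin ligase that marks bound proteins for degradation. Socs1 and Socs3 also carry a kinase inhibitory region that blocks JAKs directly. Socs3 restrains receptors that contain gp130, such as those for interleukin-6, whereas Socs1 is best known for restraining interferon signalling, and Cish and Socs2 are textbook STAT5 targets.

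Promoter sequences show where STAT-type letters lie near the start of the members that differed, with Socs1 beside them as a member that did not pass the test. In the RefSeq promoter table (GRCm38.p6, 250 bases before to 30 after each start), 4 of the 8 genes matched. Capitals mark matches to TTCNNNGAA in Socs3 and Cish, the form of a STAT recognition element, and in Socs1 to 2 copies of GAAA with any 2 bases between them, a form of the interferon regulatory factor element. The Socs3 promoter lies at chr11:117969337-117969616 on the minus strand, that of Cish at chr9:107296409-107296688 on the plus strand and that of Socs1 at chr16:10785507-10785786 on the minus strand. The sequences read 5′ to 3′ on the strand of the gene.
Socs3: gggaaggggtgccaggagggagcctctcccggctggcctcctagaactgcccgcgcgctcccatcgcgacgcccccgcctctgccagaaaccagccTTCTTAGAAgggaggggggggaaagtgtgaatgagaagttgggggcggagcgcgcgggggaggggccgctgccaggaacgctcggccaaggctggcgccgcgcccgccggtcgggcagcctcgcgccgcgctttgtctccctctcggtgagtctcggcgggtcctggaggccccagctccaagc
Cish: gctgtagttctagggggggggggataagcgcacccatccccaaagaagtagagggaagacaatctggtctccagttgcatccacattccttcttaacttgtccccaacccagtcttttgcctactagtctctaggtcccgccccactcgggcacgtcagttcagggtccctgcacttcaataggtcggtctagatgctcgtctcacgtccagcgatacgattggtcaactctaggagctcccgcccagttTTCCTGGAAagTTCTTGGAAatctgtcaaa
Socs1: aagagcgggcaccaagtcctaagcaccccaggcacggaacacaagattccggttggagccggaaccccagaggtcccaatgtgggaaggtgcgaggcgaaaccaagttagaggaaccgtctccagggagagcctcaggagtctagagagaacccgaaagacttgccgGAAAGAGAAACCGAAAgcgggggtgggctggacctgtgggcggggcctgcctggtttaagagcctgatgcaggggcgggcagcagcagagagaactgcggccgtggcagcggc

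Socs3 held 1 match to TTCNNNGAA, from -154 to -146 of its start. Cish held 2, at bases 1 to 9 and 12 to 20 counted from its start as base 1, just downstream of it. Socs1 held 0 of these and 2 overlapping matches to the paired GAAA form, between -83 and -68. Socs4, the fourth gene with a promoter in the table, held 0 of either. Both strands were searched. TTCNNNGAA occurred in 7.832% of the 32851 promoters of this length and the paired GAAA form in 3.278%. A kappaB element, searched by its usual degenerate letters, occurred in 7.936% of them and in 0 of these 4. A match describes the letters of the window only.

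The number of arrays limits the precision. Signal was well above background for 53.7% to 58.4% of probes on Nod1 -/- arrays and 48.6% to 54.7% on Nod1 +/- arrays, and no spot was saturated. Levels below are log2 signal minus the array's 75th percentile, which sets no probe's level against another's. Nod1 itself differed by -0.13 (95% confidence interval -0.59 to 0.32; adjusted p = 0.649, limma), and its 1 probe may lie outside the deleted part, so it does not check the labels. Endothelial, smooth-muscle and fibroblast markers were well above background on all 6 arrays. In Nod1 +/- replicate 1 the skeletal-muscle list averaged 3.28, against -0.37 to -0.33 in the other Nod1 +/- arrays and -0.75 to -0.18 in Nod1 -/- arrays. Other tissue lists varied too. Hepatocyte markers averaged -0.30 to 3.15 in Nod1 -/- and 0.37 to 2.23 in Nod1 +/-. Nerve and Schwann-cell markers averaged -0.66 to 0.49 in Nod1 -/- and -1.58 to -0.49 in Nod1 +/-. Red-cell markers did not overlap, at 2.38 to 2.96 in Nod1 -/- and 1.97 to 2.16 in Nod1 +/-. Across all genes, 1646 were lower in Nod1 -/- aortas and 2369 higher, with a median difference of 0.10. With arrays centred on their medians instead, 1600 were lower and 924 higher and the median difference was -0.01.

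Socs3, the feedback inhibitor of gp130 receptors, was lower in Nod1 -/- aortas than in Nod1 +/- aortas. Its level was 1.60, 1.28 and 1.68 on the Nod1 -/- arrays and 3.41, 3.97 and 3.75 on the Nod1 +/- arrays. The 3 Nod1 -/- arrays all lay below the lowest Nod1 +/- array, and the gap between the genotypes was wider than the spread within either. As processed signal the probe read 1196, 1073 and 1326 in Nod1 -/- against 4413, 6850 and 5003 in Nod1 +/-. The means were 1.52 ± 0.21 in Nod1 -/- and 3.71 ± 0.28 in Nod1 +/- (SD, n = 3 each), a difference of -2.19 with a standard error of 0.18 (95% confidence interval -2.63 to -1.74), or a 4.55-fold lower signal. limma's adjusted p over all genes was 0.00177. Fewer cells of a type and less RNA per cell cannot be told apart in such bulk samples. The probe, well above background on every array, lies at chr11:117827480-117827539 of mm9 on the minus strand.

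**Figure D1:**
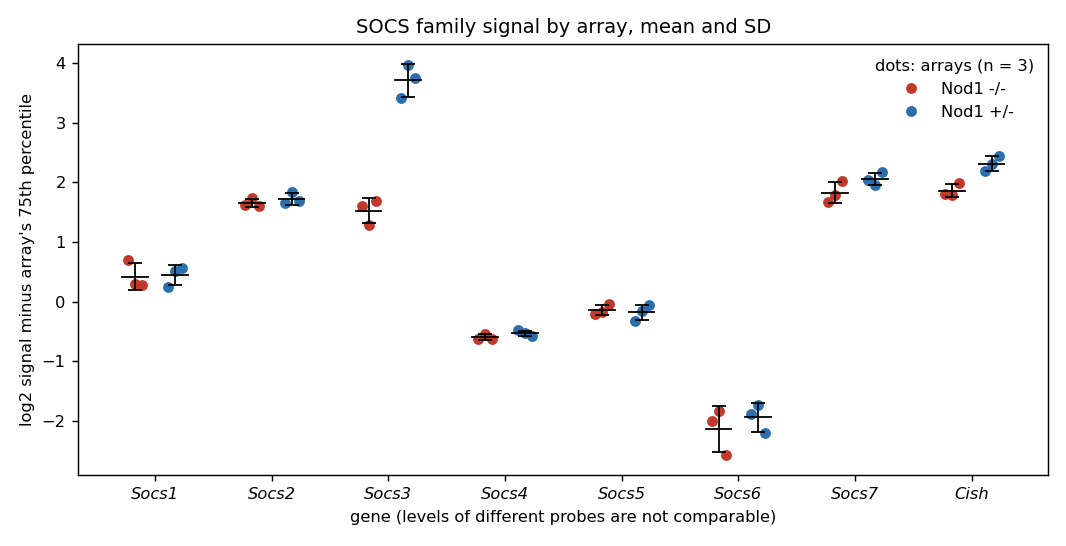
Level of the brightest probe of each SOCS gene (y axis, log2 signal minus the array's 75th percentile) by gene (x axis), with each array as a dot, Nod1 -/- in red to the left of Nod1 +/- in blue, and mean and SD as bars (n = 3 each). The genotypes stand apart for Socs3, at 1.28 to 1.68 against 3.41 to 3.97, and by a smaller distance for Cish, at 1.79 to 1.99 against 2.18 to 2.45.

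Socs1, the other member that inhibits JAKs directly, did not pass the test. Its level was 0.69, 0.29 and 0.28 on the Nod1 -/- arrays and 0.25, 0.52 and 0.56 on the Nod1 +/- arrays, so the genotypes overlapped. The difference was -0.02 (95% confidence interval -0.40 to 0.36; adjusted p = 0.932, limma). That interval does not reach the difference of Socs3, though the difference between the genes was not itself tested. The Socs1 probe lies at chr16:10783951-10784010 of mm9, minus strand.

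Cish, the founding member of the family and a STAT5 target that restrains cytokine receptors in lymphoid and myeloid cells, was lower in Nod1 -/- aortas by a small amount. Its level was 1.81, 1.79 and 1.99 in Nod1 -/- and 2.18, 2.32 and 2.45 in Nod1 +/-. The genotypes did not overlap, but the highest Nod1 -/- array and the lowest Nod1 +/- array lay close together. The means were 1.86 ± 0.11 in Nod1 -/- and 2.32 ± 0.13 in Nod1 +/- (SD, n = 3 each), a difference of -0.46 with a standard error of 0.11 (95% confidence interval -0.73 to -0.18; adjusted p = 0.0416, limma), or a 1.37-fold lower signal. Leaving out any 1 of the 6 arrays ended the call. The adjusted p was 0.129, 0.133 and 0.0501 without Nod1 -/- replicates 1, 2 and 3, and 0.0677, 0.108 and 0.0802 without Nod1 +/- replicates 1, 2 and 3. The Cish probe lies at chr9:107204196-107204255 of mm9, plus strand.

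Socs2, which limits growth hormone signalling, had 4 kept probes on chromosome 10. The brightest, at chr10:94875066-94875125 on the minus strand of mm9, was printed 10 times on each array. It ranged from 1.61 to 1.73 in Nod1 -/- and from 1.65 to 1.84 in Nod1 +/-, and the ranges overlapped. The difference was -0.07 (95% confidence interval -0.32 to 0.17; adjusted p = 0.636, limma). The SD between its 10 spots was 0.053 to 0.101 on the log2 scale within an array. The other 3 probes differed by -0.09, -0.15 and -0.21, all without passing the test over probes. The probe with -0.15 was the only one of them whose genotypes did not overlap, at means of 1.08 ± 0.03 in Nod1 -/- and 1.22 ± 0.12 in Nod1 +/- (adjusted p over kept probes = 0.362, limma). The dimmest, with -0.21, lies at 94848005 to 94848064, apart from the other 3.

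Socs4 and Socs5, a closely related pair known for curbing epidermal growth factor receptor signalling, did not pass the test. Socs4 ranged from -0.63 to -0.53 in Nod1 -/- and from -0.57 to -0.48 in Nod1 +/-, and differed by -0.07 (95% confidence interval -0.28 to 0.15; adjusted p = 0.621, limma). Socs5 ranged from -0.21 to -0.04 in Nod1 -/- and from -0.32 to -0.06 in Nod1 +/-, and differed by 0.04 (95% confidence interval -0.23 to 0.31; adjusted p = 0.820, limma). For both genes the ranges overlapped, and the sign of Socs5 turned to -0.07 when arrays were centred on their medians. Their probes lie at chr14:47911161-47911220 and chr17:87536500-87536559 of mm9, both on the plus strand.

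Socs6 and Socs7, a pair linked to insulin and growth factor receptor signalling, did not pass it either. Socs7 was 1.67, 1.78 and 2.02 in Nod1 -/- and 2.04, 1.96 and 2.17 in Nod1 +/-, with 1 Nod1 -/- array inside the Nod1 +/- range. The difference was -0.23 (95% confidence interval -0.54 to 0.08; adjusted p = 0.240, limma), at chr11:97259763-97259822 of mm9, plus strand. Socs6 was read on chromosome 18 by 4 probes, of which 2 were kept. The brighter ranged from -2.57 to -1.82 in Nod1 -/- and from -2.20 to -1.72 in Nod1 +/-, and differed by -0.20 (95% confidence interval -0.75 to 0.36; adjusted p = 0.567, limma). The other kept probe differed by 0.06, and both sets of ranges overlapped. Of the 2 probes left out, 1 was well above background on 0 arrays, and the other lacked a usable spot on Nod1 -/- replicate 1. Socs6 had the widest interval of the 8 genes.

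**Figure D2:**
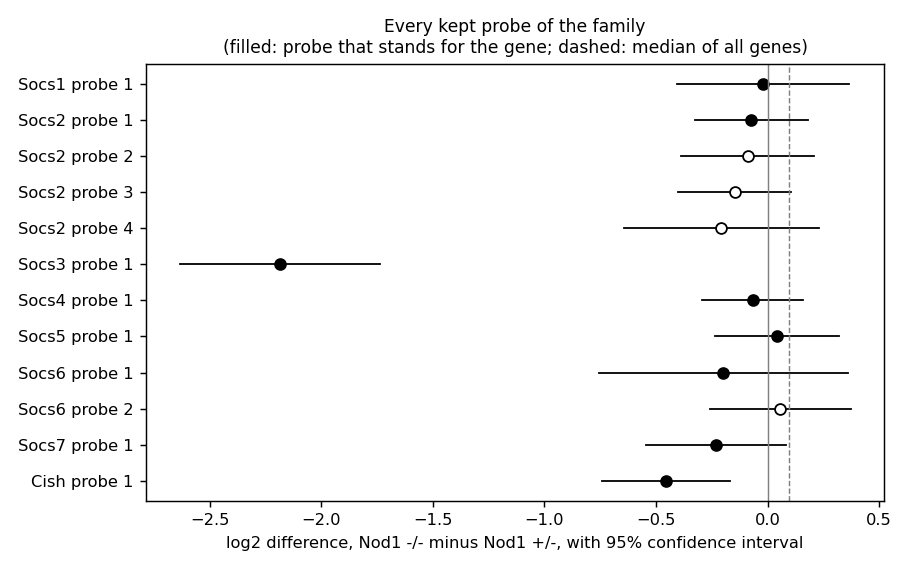
Difference of each of the 12 kept probes of the family (x axis, log2, Nod1 -/- minus Nod1 +/-, with its 95% confidence interval) by probe (y axis), filled where the probe stands for its gene. The dashed line is the median of all genes, 0.10. Only the intervals of Socs3 (-2.63 to -1.74) and Cish (-0.74 to -0.17) leave out 0.

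Over the family, 2 of 8 genes were lower in Nod1 -/- aortas and 0 higher by limma (0 also at an unadjusted p under 0.05), against 7.66% and 11.0% of all tested genes (18.7% in either direction). The median difference was -0.14, against 0.10 over all genes. The genotypes did not overlap for 2 of the 8, against 42.4% of all genes. With so few members these counts set the family apart from no other group, and the values that stand out are those of Socs3. In order of the differences, Socs3 (-2.19) came first, then Cish (-0.46), Socs7 (-0.23), Socs6 (-0.20), Socs2 (-0.07), Socs4 (-0.07), Socs1 (-0.02) and Socs5 (0.04). From Cish to Socs5, each gene's interval overlapped that of its neighbour. Tested over all kept probes, of which 16.0% passed, Socs3 had an adjusted p of 0.00218 and Cish of 0.0487, and no probe of another member passed.

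Socs3 kept its call under all 19 other ways of processing or fitting the arrays, with differences from -2.37 to -2.02 and adjusted p from 0.00024 to 0.0249 (limma). The arrays lay on 1 slide, with Nod1 -/- replicates 1 and 2 in one row and the other 4 in the next. With the row as a block, Nod1 -/- rests on its replicate 3 alone, and Socs3 differed by -2.02 (adjusted p = 0.0249). Without the first replicate of both genotypes, Socs3 differed by -2.37 (adjusted p = 0.0197) and Cish by -0.49 (adjusted p = 0.196). Cish passed in 9 of the 19, was below 0 in all of them and ranged from -0.56 to -0.33. None of the other 6 genes passed in any.

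**Figure D3:**
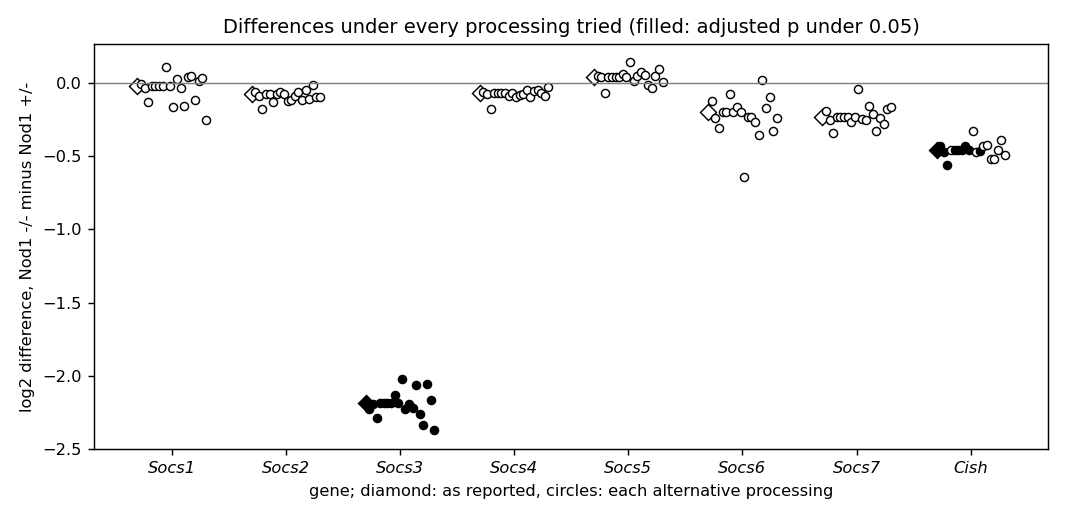
Difference of each SOCS gene (y axis, log2, Nod1 -/- minus Nod1 +/-) as reported (diamond) and under 19 other ways of processing or fitting (circles), by gene (x axis), filled where the adjusted p was under 0.05. Socs3 is filled throughout, between -2.37 and -2.02, Cish is filled in 9 of 19, and the other 6 genes are open throughout.

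Neutrophil markers separated the genotypes in the same direction as Socs3. The list averaged -0.69 to -0.47 on Nod1 -/- arrays and 1.44 to 2.11 on Nod1 +/- arrays, with no overlap, and 9 of its 13 genes were lower in Nod1 -/-. S100a8, a calcium-binding protein of neutrophil cytoplasm, was 1.35, 1.80 and 1.49 in Nod1 -/- and 4.77, 5.18 and 4.34 in Nod1 +/-. Cxcr2, the neutrophil chemokine receptor, was well above background on 0 of 3 Nod1 -/- arrays and on 3 of 3 Nod1 +/- arrays. It thus met the filter of at least 3 of 6 arrays through the Nod1 +/- arrays alone. Its split, and its place among the 9, are therefore no separate support. Ly6g, Camp, Elane and Mpo, also on the list, did not pass the test, and 12 of the 13 genes were well above background on all 6 arrays. Macrophage markers averaged 1.86 to 2.71 in Nod1 -/- and 1.86 to 2.07 in Nod1 +/-, with 2 of 9 genes, Cx3cr1 and Lyve1, higher in Nod1 -/-. The Lyve1 call (adjusted p = 0.0202) ended with the replicate block (0.0565) and without replicate 1 or 2 of either genotype (0.0513 to 0.0793), and Mrc1, Cd163 and Cd68, which did not pass, differed by -0.58, -0.42 and -0.13. Endothelial markers averaged 2.98 to 3.06 in Nod1 -/- and 2.68 to 2.93 in Nod1 +/-. Fibroblast markers averaged 5.85 to 5.96 in Nod1 -/- and 5.60 to 5.68 in Nod1 +/-. Each list had 2 genes higher in Nod1 -/- and no overlap of the averages. The endothelial calls were Tie1 and Cldn5, and the fibroblast calls Lum and Dcn. Median scaling ended those of Tie1, Cldn5 and Dcn (adjusted p = 0.0988, 0.0962 and 0.0899, limma). That of Tie1 also ended without any array but Nod1 +/- replicate 2 (0.0632 to 0.111). That of Cldn5 also ended without any array but Nod1 +/- replicate 3 (0.0513 to 0.116). Leaving out Nod1 -/- replicate 1 or 2 also ended that of Dcn (0.0507 and 0.0504). That of Lum ended without the first replicate of both genotypes (0.0927). Lymphocyte markers averaged -2.79 to -2.56 in Nod1 -/- and -3.06 to -2.77 in Nod1 +/-. Only 5 of the 11 were well above background on all 6 arrays, and Cd8a and Ncr1 were so on none. Cd79b was higher in Nod1 -/- by 1.09 (adjusted p = 0.0487, limma). That call ended with median scaling (0.107) and when 1 of 5 of the arrays was left out (0.0780 to 0.118). The part of neutrophil RNA in the differences of Socs3 and of the signalling genes below was not tested.

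**Figure D4:**
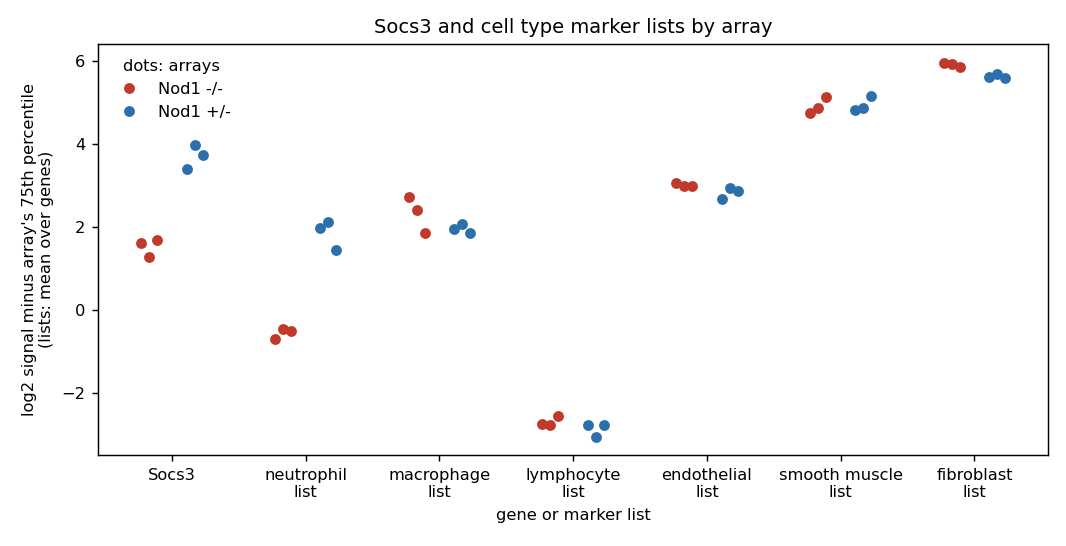
Level of Socs3 and mean level of 6 marker lists (y axis, log2 signal minus the array's 75th percentile) by gene or list (x axis), with each array as a dot, Nod1 -/- in red to the left of Nod1 +/- in blue. The neutrophil list stands apart by genotype as Socs3 does, at -0.69 to -0.47 against 1.44 to 2.11, while the macrophage and smooth-muscle lists overlap.

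Among the 5 tested genes whose centred levels over the 6 arrays lay nearest to Socs3, by root mean square distance in log2, were Lilra6 (0.062), Amica1 (0.095), Tnfsf14 (0.164) and Rhbdf2 (0.171). Lilra6, a leukocyte receptor, was 0.16, -0.12 and 0.37 in Nod1 -/- and 2.15, 2.67 and 2.40 in Nod1 +/-. The same array was lowest within each genotype as for Socs3, and so was the highest. Tnfsf14, a ligand of the tumour necrosis factor superfamily, was well above background on 1 of 3 Nod1 -/- arrays. For Cish the nearest were Zfp36l1 (0.0161), Trim3 (0.031), Setd8 (0.034), Erbb2 (0.035) and Phrf1 (0.037). Of these, Zfp36l1, Trim3 and Phrf1 passed the test, with differences of -0.47, -0.50 and -0.47. Each of these 3 calls ended when 1 of 5 of the arrays was left out. The adjusted p then lay between 0.0676 and 0.111 for Phrf1, 0.0505 and 0.121 for Trim3 and 0.0684 and 0.122 for Zfp36l1. Those arrays were all but Nod1 -/- replicate 3, without which the call of Cish ended as well (adjusted p = 0.0501, limma). Such likeness is a description over 6 arrays that share a slide. Genes chosen by it have differences, and an order of arrays, close to those of Socs3 or Cish by the choice itself. Neither these differences nor the shared order of arrays is a separate result.

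The genes around the family were read as lists, which give counts beside the 18.7% of all genes that changed. Of 10 JAK kinases and STAT factors, 7 were lower in Nod1 -/- aortas and 0 higher, with a median difference of -0.90. Stat3, the STAT downstream of gp130, was 3.33, 3.46 and 3.58 in Nod1 -/- and 4.70, 4.61 and 4.95 in Nod1 +/-. The genotypes stood clear of each other, by -1.30 with a standard error of 0.13 (adjusted p = 0.00277, limma). Stat4, the STAT of interleukin-12 signalling, differed by -1.58, Stat5a by -1.11 and Jak1, the kinase bound by most interferon and gp130 receptors, by -0.98, with adjusted p of 0.00221, 0.00422 and 0.00555 (limma). Jak3 (-1.44), Jak2 (-0.45) and Stat6 (-0.51) were also lower. The Jak2 call ended with median scaling (0.0581) and without any array but Nod1 +/- replicate 3 (0.0542 to 0.0831), and that of Stat6 ended when Nod1 -/- replicate 1 or 2, or Nod1 +/- replicate 2, was dropped (0.0713 to 0.0793), so 5 to 7 of the 10 passed without single arrays. Stat2 differed by -0.81 (adjusted p = 0.0512), just outside the threshold. Stat5b, which like Stat5a drives Cish and Socs2, differed by -0.12 (95% confidence interval -0.40 to 0.17). Without the first replicate of both genotypes 3 of the 10 passed.

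Among receptors of the gp130 family, which Socs3 restrains, 4 of 9 were lower in Nod1 -/- and 1 higher, with a median of -0.36. Il6st, which encodes gp130 itself, was 3.81, 4.03 and 3.92 in Nod1 -/- and 4.98, 4.90 and 4.90 in Nod1 +/-, a 2.01-fold lower signal in Nod1 -/- (adjusted p = 0.00275, limma). Osmr, the oncostatin M receptor, was 2.37, 2.49 and 2.31 in Nod1 -/- and 3.89, 3.76 and 3.84 in Nod1 +/-, a difference of -1.44 (adjusted p = 0.00111, limma). Both held apart by more than the spread of their replicates. Il6ra, the interleukin-6 binding chain, differed by 0.03 (95% confidence interval -0.29 to 0.35). Il27ra differed by -1.13 (adjusted p = 0.0204), a call that ended without Nod1 -/- replicate 1 (0.0603) or Nod1 +/- replicate 2 (0.0532), and normexp background correction gave -0.75. Il11ra1, the interleukin-11 receptor, was higher in Nod1 -/- by 0.49 (adjusted p = 0.0476), and median scaling ended that call at 0.38 (0.153), as did leaving out any array but Nod1 +/- replicate 3 (0.0967 to 0.145). Leaving out any array but that one left 2 or 3 of the 9 past the threshold.

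Of the interferon and interleukin-10 family receptors, 2 of 7 tested were lower, with a median of -0.33, and 0 were higher. These were the interferon-gamma receptor chains, Ifngr2 by -0.62 (adjusted p = 0.0175, limma) and Ifngr1 by -0.39 (adjusted p = 0.0495). The Ifngr2 call ended without Nod1 -/- replicate 1 or 2 (0.0576 and 0.0501) or Nod1 +/- replicate 2 (0.0580), and that of Ifngr1 without any 1 of the arrays (0.0909 to 0.129). Without single arrays 0 or 1 of the 7 passed. Hormone and common-chain cytokine receptors had 5 of 14 lower and 1 higher, with a median of -0.09. Il4ra, which Socs1 is known to restrain, was -0.11, -0.46 and -0.65 in Nod1 -/- and 2.12, 2.17 and 2.25 in Nod1 +/-, a difference of -2.58 (adjusted p = 0.000799, limma). Csf2rb, the common beta chain of the interleukin-3 and GM-CSF receptors, differed by -2.18 and Il2rg, the common gamma chain, by -2.15, with adjusted p of 0.00240 and 0.00362. All 3 stood clear of the other genotype on every array. Il15ra differed by -0.57 (adjusted p = 0.0137), which ended without Nod1 -/- replicate 2 (0.0559) or Nod1 +/- replicate 1 (0.0531), and without either array 3 of the list passed. The mean of its probes differed by -0.89. Epor, the erythropoietin receptor, was the one higher in Nod1 -/-, by 0.76 (adjusted p = 0.0186). That call ended with median scaling (0.0763) and when Nod1 -/- replicate 1 or 2, or Nod1 +/- replicate 1, was dropped (0.0626 to 0.0761), and blocking on slide row gave 0.50 (0.126).

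Of 28 cytokines and hormones that act through JAKs, 10 could be tested, with 1 lower, 1 higher and a median of -0.07. Il6, the interleukin-6 gene, was -4.20, -3.57 and -4.46 in Nod1 -/- and -0.39, 0.60 and -0.56 in Nod1 +/-. It differed by -3.96 (adjusted p = 0.00236, limma), and 2 of 3 Nod1 -/- arrays were well above background against 3 of 3 Nod1 +/- arrays. With normexp background correction the difference was -2.32, which also passed the test. Ctf1, the cardiotrophin gene, was higher in Nod1 -/- by 0.73 (adjusted p = 0.00704). That call ended without the first replicate of both genotypes (adjusted p = 0.0963, limma), and blocking on slide row gave a difference of 0.71. Lif, Osm, Ifng and Ifnb1 were among the 18 not tested because too few arrays were well above background.

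Few genes of the SOCS-box machinery passed the test. Of 9 ligase subunits, 1 was lower in Nod1 -/- and the median was 0.10, as over all genes. Cul5, the scaffold that SOCS proteins recruit, differed by 0.01 (95% confidence interval -0.27 to 0.28), and Elob and Eloc, the elongins, by 0.14 and 0.10. The 1 call, the neddylation enzyme gene Ube2f at -0.49 (adjusted p = 0.0322), ended under median scaling (0.0723) and without any array but Nod1 +/- replicate 3 (0.0673 to 0.101). Other SOCS-box proteins had 2 of 20 tested lower, Asb4 by -0.86 (adjusted p = 0.0209) and Wsb2 by -0.40 (adjusted p = 0.0332), with a median of -0.12. A second Asb4 probe differed by 0.11. The Asb4 call ended without any of the 3 Nod1 -/- arrays or Nod1 +/- replicate 2 (0.0520 to 0.0803), after which 0 of the 20 passed, and that of Wsb2 ended without any 1 array (0.0510 to 0.108).

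Other brakes on the pathway had 2 of 12 lower in Nod1 -/-, with a median of -0.24. Ptpn1, a phosphatase of JAKs, differed by -0.74 (adjusted p = 0.0136) and Cblb, a ubiquitin ligase, by -0.51 (adjusted p = 0.0161). The Ptpn1 call ended without Nod1 -/- replicate 2 (0.0596), and that of Cblb without Nod1 -/- replicates 1 or 2 or Nod1 +/- replicates 1 or 2 (0.0528 to 0.0649), each of which left 0 or 1 of the 12. The inhibitors Pias1 to Pias4 did not pass. Reported SOCS substrates outside the pathway had 5 of 14 lower and 1 higher, with a median of -0.35. Irs2, an insulin receptor substrate degraded through Socs1 and Socs3, differed by -0.92 (adjusted p = 0.00639). Vav1, Kit and Rela differed by -0.85, -0.89 and -0.93, with adjusted p of 0.0118, 0.0122 and 0.0192 (limma). The Kit call ended without Nod1 -/- replicate 2 (0.0534) and that of Rela without Nod1 -/- replicate 1 or 2 (0.0589 and 0.0732), and those 2 fits left 3 and 2 of the 14. Csf1r, the macrophage growth factor receptor, was the one higher in Nod1 -/-, by 0.96 (adjusted p = 0.0294). That call ended with median scaling (0.0719), with the replicate block (0.0514) and without any array but Nod1 -/- replicate 3 (0.0585 to 0.101), and blocking on slide row gave 0.52 (0.171).

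Known targets of Stat3 and of the Stat5 factors were counted last. Of 20 tested STAT3 targets, 15 were lower in Nod1 -/- and 0 higher, with a median of -1.34. Il4ra and Osmr, already counted as lower among the receptors, were among these 15, so the lists are not separate. Without single arrays 11 to 16 of the STAT3 targets passed. Timp1, a metalloproteinase inhibitor, differed by -1.92 (adjusted p = 0.000728), Pim1, a survival kinase, by -1.44 (adjusted p = 0.00236) and Saa3, an acute-phase gene, by -8.51 (adjusted p = 0.00111, limma). The STAT5 targets were mixed, with 2 of 8 lower and 2 higher and a median of -0.19. Pim1 and Bcl6 (-1.16) were lower, and Igf1 (1.42, adjusted p = 0.00324) and Id1 (0.84, adjusted p = 0.00419) were higher in Nod1 -/-. Without the first replicate of both genotypes 10 STAT3 and 2 STAT5 targets passed. In that fit 2 gp130-family, 1 interferon and interleukin-10 and 3 hormone and common-chain receptors passed, with 1 cytokine or hormone and 0 of the ligase subunits, other SOCS-box proteins, other brakes and substrates. Many of these genes answer to NF-kB or other factors as well, and whether the 2 target lists differed from each other was not tested.

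**Figure D5:**
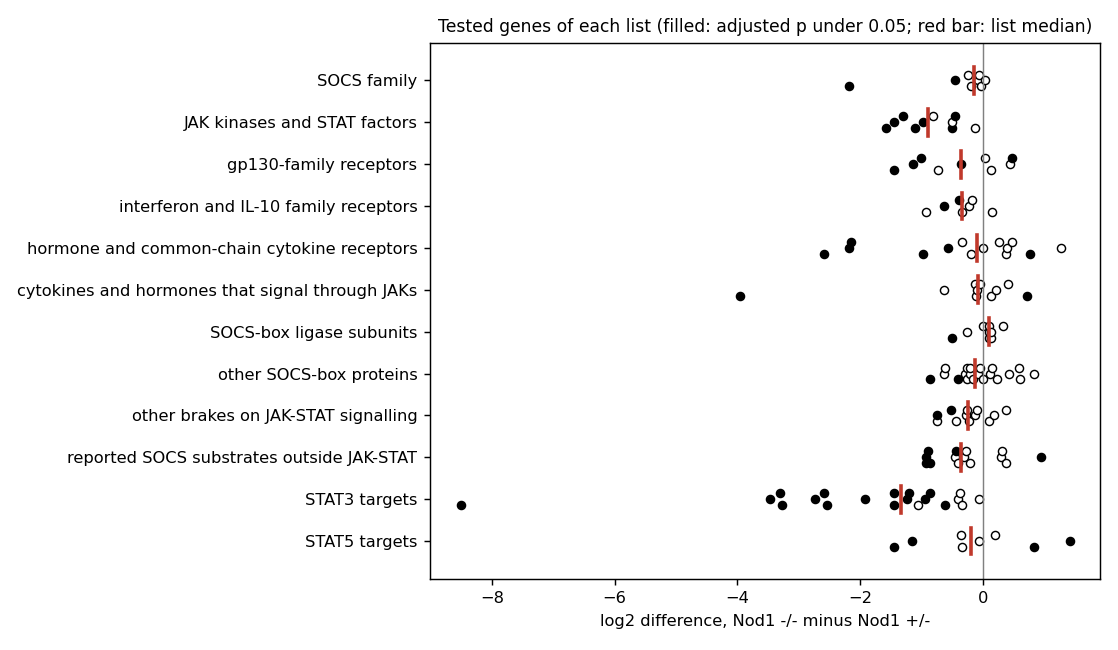
Difference of each tested gene (x axis, log2, Nod1 -/- minus Nod1 +/-) by list (y axis), filled where the adjusted p was under 0.05, with a red bar at the list's median. The STAT3 targets (median -1.34) and the JAK and STAT genes (-0.90) lie mostly below 0, and the SOCS-box ligase subunits (0.10) lie around it.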

How the data were processed

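The authors hybridised RNA to 1-colour Cy3 Agilent arrays. Each spot's intensity in the deposited scanner files is linear, and its background was subtracted with Agilent Feature Extraction. The version is 10.7.1.1 per the file headers but 9.5.1.1 per the submitters' processing notes. Probe positions refer to mm9, per the file headers, and a probe's place within its gene was not annotated here. The authors' deposited intensity values of the whole series had a median of 33.4 on every array, by a scaling step not given in the sources used here, and served only as an alternative. There were 0 columns of per-sample values that could not be mapped.

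Control spots and spots marked as outliers were left out. Spots of a probe were averaged as log2 signal and the array's 75th percentile was subtracted. A probe was kept when well above background on at least 3 of 6 arrays, and a gene was its kept probe of highest mean. Genotypes, taken from the labels, were compared as Nod1 -/- minus Nod1 +/- with limma 3.58.1 (lmFit and eBayes, R 4.3.3), with Benjamini-Hochberg adjustment over the 21478 genes and a threshold of 0.05. The fit was tested on simulated data. Files were read with the data.table package, version 1.17.8, and drawn with matplotlib 3.10.9 and numpy 2.4.6.

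The members, pathway lists and marker lists were chosen with earlier results of these data known, and support nothing by themselves. From each list up to 4 changed genes of smallest p were named, with further genes named after their values were seen. Some listed genes are not reported here. Alternatives covered the background correction, scaling, filter, probe choice, variance model, array weights, blocks for replicate number and slide row, Xist signal, the deposited table and each array left out. Once the data had been seen, a fit that drops the first array of each genotype was added.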

Additional observations from a re-analysis of the deposited data

How the results depend on the processing

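The family count of 2 fell to 1, Socs3 alone, when dim probes were kept in, when the slide row was a block, when Xist signal was a covariate and without the first replicate of both genotypes. Leaving out single arrays gave 1 to 1. Cish was the gene lost each time. Over all genes, 4015 changed as reported, against 2524 with median scaling, 1639 with no filter, 6026 with array weights, 1034 with the row block, 2289 with the Xist covariate and 639 without both first replicates, and 1468 to 3390 when single arrays were left out. With the replicate number as a replicate block the family count was 2 and the count over all genes 4041. Among the called genes named, this block ended the calls of Ifngr1, Il11ra1, Csf1r and Lyve1 (adjusted p = 0.0732, 0.0655, 0.0514 and 0.0565, limma). It also ended those of Cldn5 and Cd79b (adjusted p = 0.0845 and 0.0599991, limma). Same-numbered arrays deviated together only weakly, with correlations of 0.083, 0.277 and 0.111, against -0.306 to 0.126 for arrays of unlike number. Nod1 -/- replicates 2 and 3 correlated best with the array of their own number. Nod1 -/- replicate 1 correlated better with Nod1 +/- replicate 3 (0.126). These values do not settle whether the numbers pair the samples, and the main fit did not take them to.

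Directions turned only for genes that did not pass the test. Socs1 was 0.11 with array weights and 0.030 with the Xist covariate, and -0.157 to 0.048 when single arrays were left out. Socs5 was -0.067 with median scaling and -0.031 to 0.100 without single arrays. Socs6, at -0.198 as reported, was -0.352 to 0.022 without single arrays, above 0 only without Nod1 -/- replicate 3, and -0.639 with the row block. Nod1 was -0.243 to 0.071 without single arrays. With the row block 5 JAK and STAT genes, 11 STAT3 and 4 STAT5 targets, 2 gp130-family, 0 interferon and 4 hormone receptors, 1 cytokine, 2 substrates and 0 genes of the other 3 lists passed. The cause of these changes was not tested. Fits that leave out arrays have fewer samples, and with the row block the Nod1 -/- genotype rests on 1 array, assumed to vary like the others. Xist was well above background on 3 of the arrays, 1 Nod1 -/- and 2 Nod1 +/-, so its signal was not balanced between the genotypes. The intervals of the 6 genes that did not pass lay between -0.75 and 0.36, and differences within them could not be seen with this number of arrays.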
